A study of Mus musculus with 16 samples.

Results

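Open chromatin was measured by ATAC-seq in pancreatic islets of C57BL/6J mice (B6), the strain whose genome is the mouse reference, and set against 7 other inbred strains. The 2 B6 samples, 1 female and 1 male, were chosen by their strain label out of 16 samples, and the comparison was with the other 14. Those came from 129S1_SvImJ (129), A_J (AJ), NOD_ShiLtJ (NOD), NZO_HlLtJ (NZO), CAST_EiJ (CAST), PWK_PhJ (PWK) and WSB_EiJ (WSB), again with 1 female and 1 male of each. Every sample was made from 50 islets and amplified by 12 PCR cycles, and no treatment was given in the labels. The number and the age of the mice behind a sample are not given in the sources used here. The female and the male are therefore the only replicates of a strain. The p-values below set a difference against the spread between female and male, pooled over all strains and not that of B6 alone. Fits with another error are named as such.

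Islets are clusters of endocrine cells in the pancreas, of which beta cells secrete insulin and alpha cells secrete glucagon. In ATAC-seq a transposase cuts DNA that is free of nucleosomes and leaves sequencing adapters there, so that promoters, enhancers and insulator sites collect reads and appear as peaks. Inbred strains differ at many such sites because sequence variants alter the binding of transcription factors. B6 has a particular place in this set, since reads of all 8 strains were placed on its genome and a segment that B6 lacks has no coordinate to be counted at. Every sequence printed here is therefore the B6 sequence.

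Peaks of the 16 lists on chromosomes 1 to 19 were merged where they overlapped, which gave 347712 regions. Of these, 40940 had a peak in all 16 samples and are called shared regions. The signal of a sample in a region was the height of its highest summit there. For levels, this height was divided by the median of the sample over the shared regions (scaled signal, so that 1 is the typical shared region). For tests, log2(summit signal + 1) was centred on the same median, so each difference is relative to the typical shared region and is understated where signal is low. An islet sample is a mixture of cells, in which fewer cells of a type and a lower signal in each cell cannot be told apart.

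The B6 lists were close to the middle of the series. The B6 female had 117672 peaks over 50.9 Mb and the B6 male had 108920 peaks over 47.0 Mb, whereas the other 14 lists ranged from 77887 (AJ male) to 167051 (WSB female). The median summit signal over the shared regions was 84.0 and 83.0 in B6, within the range of 32.0 (PWK male) to 136 (CAST male) of the others. The lists hold no read totals, and the depth of single samples was not analysed here. A peak was called in both B6 samples at 80559 regions and in neither at 219717. A further 27939 regions were called in the B6 female alone and 19497 in the B6 male alone. Of the regions in both B6 samples, 50.8% were called in all 16 samples and 0.488% in no other sample. The same shares had medians of 53.4% and 1.46% over the other 7 strains.

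The labelled tissue was checked against its markers. Shared regions lay within 3 kb of a start site of 15 of 16 beta cell genes, among them Ins2, Pdx1, Nkx6-1, Mafa and Pax6, with none for Glp1r, and none of the 15 passed the test between B6 and the other strains. The scaled signals of these regions summed to 41.8 in the B6 female and 36.1 in the B6 male, within the range of 35.5 to 51.6 in the other samples. Some of the 15 are wide merges, such as that at Pax6 (chr2:105665200-105696631). In these the highest summit may lie far from the start site and at different places in different samples. Of the 12 markers of other endocrine cells, 5 had a shared region and none of them passed. For acinar cells, 1 of 12 markers had a shared region (Bhlha15), for endothelium 1 of 8 (Esam), for leukocytes 2 of 10 (Cd74 and H2-Aa), for ducts 4 of 8 and for stellate cells and fibroblasts 4 of 8. Markers with a shared region included neither Prss2, Cpa1, Pecam1 nor Ptprc. Summed signals of B6 lay within the range of the other samples for each of these lists.

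Relative to the mean of the other 7 strains, 596 shared regions were higher in B6 (1.46%) and 686 were lower (1.68%), by limma with strain and sex in the model at a Benjamini-Hochberg adjusted p under 0.05. Because this contrast can pass when another strain is far from the rest, a region was read as standing apart in B6 only when both B6 samples also lay beyond all 14 others. This held at 231 higher regions (0.564%) and 324 lower regions (0.791%), with median log2 differences of 1.15 and -1.09. The same test for every other strain gave between 1236 (NOD) and 8429 (CAST) regions in both directions together, so the 1282 of B6 were the third lowest of 8. B6 thus differed from the average of the panel at about as many regions as 129 (1267) and NOD did. The error in this test is the spread between both sexes within strains. A 2-group fit, B6 against the 14 other samples with a term for sex, called 0 regions higher and 2 lower. It had 2420 at an unadjusted p under 0.05. Its error mixes the spread between and within strains and treats the 2 samples of a strain as independent. With the spread between strains alone as the error, a fit of the 8 strain means called 0 in either direction. It had 877 at an unadjusted p under 0.05. The counts also rest on single samples. Without the B6 male 19 regions were higher and 70 lower, and without the NZO female 1991 and 1512.

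**Figure D1:**
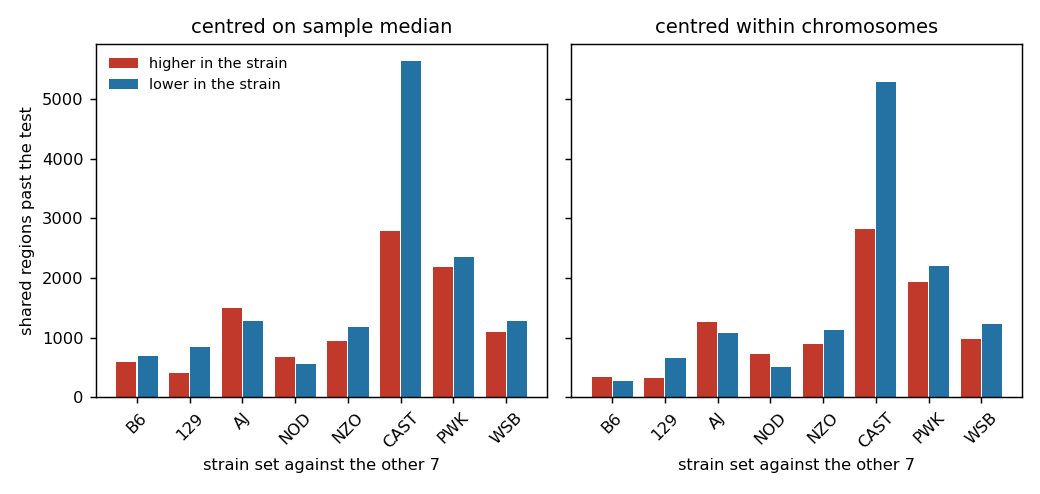
Number of shared regions past the test (y axis) when each strain (x axis) is set against the mean of the other 7, for regions higher (red) or lower (blue) in that strain, with values centred on the sample median (left) or within each chromosome (right). B6 has 596 higher and 686 lower regions on the left and 348 and 272 on the right, against 2793 and 5636 for CAST on the left.

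The lower regions were not spread evenly over the genome. Chromosome 19 holds 2.38% of the shared regions but held 330 of the 686 lower regions (48.1%) and 176 of the 324 that lay below all other samples (54.3%), with 1 higher region. This was a shift of the chromosome as a whole. Of its 975 shared regions 952 had a negative difference, and the median difference was -0.74, which is 0.60 of the mean of the other strains. Along the chromosome, the medians of 12 consecutive bins of 5 Mb, each with at least 32 regions, ran from -0.92 to -0.58. On the other 17 chromosomes, with chromosomes 18 and 19 left aside, the medians were between -0.06 and 0.04.

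The shift of chromosome 19 was present in both B6 samples and in part in 129. Measured as the median deviation from the 16-sample median of each region, it was -0.59 in the B6 female and -0.79 in the B6 male. In 129 it was -0.38 in the female and -0.46 in the male, in PWK -0.23 and -0.06, and in the other 5 strains it lay between 0.03 and 0.29. The 2 B6 samples were the lowest of the 16, although an exact permutation over 8 strains cannot give a p under 0.125 for 1 strain. B6 was lower than every other strain on this chromosome, with medians of -0.27 against 129, -0.52 against PWK and -0.75 to -0.99 against the others. Promoters (-0.79), introns (-0.66) and intergenic regions (-0.68) shared it, as did the weakest (-0.68) and the strongest (-0.77) of 3 classes by mean signal. Peaks on chromosome 19 made up 1.76% of the list of the B6 female and 1.60% of that of the B6 male, against 1.80% and 1.87% in 129, 2.18% and 1.87% in PWK and 2.36% to 2.77% in AJ, CAST, NOD, NZO and WSB. The deposited score (-0.36 and -0.48), the -log10 p-value (-0.81 and -0.996) and the covered bases (-0.37 and -0.58) of the shared regions were lower there as well, below all 14 other samples in each case. The source of the shift was not tested.

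**Figure D2:**
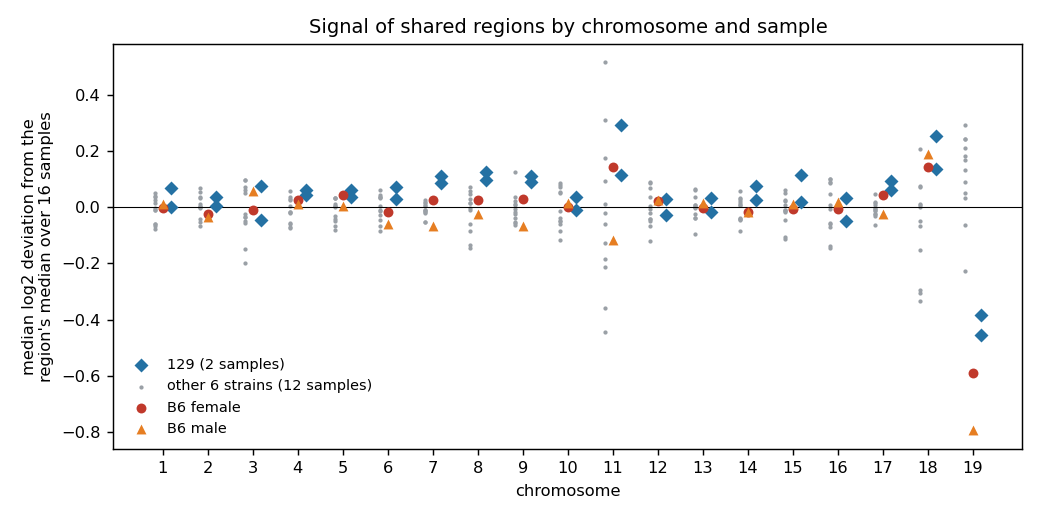
Median log2 deviation of the centred signal from each region's median over 16 samples (y axis) by chromosome (x axis), with 1 point per sample. On chromosome 19 the B6 female (-0.59) and the B6 male (-0.79) lie below all other samples, with 129 next, and on chromosome 18 both B6 samples lie above 0.

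Chromosome 18 moved the other way to a smaller extent. Its 1454 shared regions had a median difference of 0.22, and 57 were higher and 4 lower. The median deviation was 0.14 in the B6 female and 0.19 in the B6 male, which overlapped the other samples, since the 129 male reached 0.25 and the PWK male 0.21. Chromosome 11 varied most among the other samples, with -0.44 at the low end (PWK male) and 0.51 at the high end (NZO male). The B6 female was at 0.14 and the B6 male at -0.12 there. Centring the signal within each chromosome, a setting chosen after these shifts were seen, left 348 higher regions (0.85%) and 272 lower regions (0.664%), of which 5 lower regions were on chromosome 19. Regions beyond all other samples then numbered 145 higher (0.354%) and 120 lower (0.293%). Of these, 136 and 111 were also found without it. Under this centring B6 had the fewest regions of the 8 strains, with 620 in total. Both settings are given below for named shared regions on chromosomes 18 and 19 that passed the test.

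Named regions are the 12 higher and 12 lower ones with the widest gap between the nearest B6 sample and the nearest other sample, and each carries the name of the gene with the nearest start site. Start sites are those of GENCODE, and an intergenic region may lie far from the gene that names it.

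For the first 3 of either direction, 200 bases of GRCm38 (plus strand) around the highest summit of any sample are printed first. Capitals mark a repeated unit or a match to 1 of the 10 motifs listed further on. They show what kind of sequence lies under the clearest differences.
Gm20948, chr8:39155550-39155749: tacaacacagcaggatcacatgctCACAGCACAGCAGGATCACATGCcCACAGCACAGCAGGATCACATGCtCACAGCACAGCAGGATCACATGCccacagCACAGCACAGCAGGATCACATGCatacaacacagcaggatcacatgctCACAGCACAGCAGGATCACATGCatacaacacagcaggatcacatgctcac
Ddx18, chr1:121605217-121605416: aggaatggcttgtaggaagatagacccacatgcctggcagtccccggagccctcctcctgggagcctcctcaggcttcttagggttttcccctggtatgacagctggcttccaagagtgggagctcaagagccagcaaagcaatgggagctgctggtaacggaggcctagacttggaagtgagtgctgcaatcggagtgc
Gm17088, chr6:134161096-134161295: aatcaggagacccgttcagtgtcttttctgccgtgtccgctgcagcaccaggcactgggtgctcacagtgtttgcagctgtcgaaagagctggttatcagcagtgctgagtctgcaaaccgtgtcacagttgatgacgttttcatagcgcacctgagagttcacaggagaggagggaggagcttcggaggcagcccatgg
Gm48268, chr12:59459962-59460161: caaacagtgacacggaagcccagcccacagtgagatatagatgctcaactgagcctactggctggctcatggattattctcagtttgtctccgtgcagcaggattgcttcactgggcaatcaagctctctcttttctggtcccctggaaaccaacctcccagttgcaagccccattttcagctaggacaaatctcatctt
Gm24359, chr12:34997859-34998058: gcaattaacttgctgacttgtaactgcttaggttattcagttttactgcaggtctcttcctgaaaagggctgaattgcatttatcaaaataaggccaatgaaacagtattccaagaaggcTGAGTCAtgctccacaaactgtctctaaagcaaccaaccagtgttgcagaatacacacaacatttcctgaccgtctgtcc
AC116128.1, chr19:36816069-36816268: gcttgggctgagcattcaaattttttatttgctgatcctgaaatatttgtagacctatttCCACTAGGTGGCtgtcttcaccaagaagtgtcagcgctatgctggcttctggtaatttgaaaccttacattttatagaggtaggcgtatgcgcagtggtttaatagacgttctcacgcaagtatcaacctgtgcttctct
The first is a tandem array, in which a unit of 23 bases recurs 5 times without a change. Of the others, the fifth has an AP-1 letter match while the sixth has a CTCF core match.

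Among the higher regions, the widest gap was at the tandem array in an intron of Tusc3, a subunit of the oligosaccharyltransferase, with the pseudogene Gm20948 as the nearest start site (chr8:39155273-39156028). Scaled signal was 2.64 in the B6 female and 2.65 in the B6 male and ran from 0.226 (WSB female) to 1.22 (NZO female) in the others, with a median of 0.737. The groups did not overlap, and the log2 difference was 2.02 ± 0.27 (SE; limma, adjusted p = 0.0024). Soft-masked repeats cover 67.1% of the region, and the 31-base words at its summit occur at least 3 times in the genome, so the placement of its reads is uncertain. The other 11 regions had unique words.

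3 of the 12 lay on chromosome 6 within a few megabases of each other. The strongest was intronic in Etv6, which encodes an ETS-family transcription factor, and is named by the antisense gene Gm17088 (chr6:134160000-134161804). Here B6 had 5.50 and 5.65 and the others from 1.79 to 3.00 (log2 difference 1.28 ± 0.20, adjusted p = 0.0048). Farther along the chromosome, near Lrp6, a coreceptor of Wnt ligands, the region next to the lincRNA Gm44448 (chr6:134439370-134440307) stood at 1.99 and 2.13 in B6. The 129 pair followed at 1.09 and 1.07, and all others were at 0.686 or below, down to 0.0943 in the CAST female. This gave a log2 difference of 2.18 ± 0.22 (adjusted p = 0.00040). The third was an intronic region of Ptpro, a receptor tyrosine phosphatase, named by Gm44258 (chr6:137437464-137438468). Its B6 female reached 2.73 and its B6 male 1.60, above a range of 0.255 to 0.899.

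An intergenic region lay 36707 bases from the start of Ddx18, a DEAD-box RNA helicase (chr1:121604696-121605824). B6 had 2.94 and 3.94, and the others from 0.255 (NZO male) to 1.46 (WSB female), with a log2 difference of 1.92 ± 0.41 (adjusted p = 0.025). The female and the male of 129 (0.47 and 1.26) and of NZO (0.963 and 0.255) were far apart here. A region in a distal intron of Ptprd, another receptor tyrosine phosphatase (chr4:77743228-77744029), had 1.69 in the B6 female and 3.60 in the B6 male, against at most 0.991. The 2 B6 samples were thus far from each other, though both lay above all others (log2 difference 1.95 ± 0.32, adjusted p = 0.0069).

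Of the higher named regions 2 were promoters. One lies at the lincRNA Gm39384, 2832 bases from a start site of Sh3bgrl2 (chr9:83572836-83573999), and had 1.39 and 1.30 in B6 against 0.375 to 0.739 (log2 difference 1.42 ± 0.20, adjusted p = 0.0030). The other covers the T cell receptor alpha variable segment Trav10 (chr14:53505332-53505967), with 1.02 and 1.75 against 0.176 to 0.623. Intergenic regions completed the list. They were nearest to the pseudogene AC105333.1 on chromosome 18 (3.50 and 3.95 against at most 2.07), to the annotated miRNA Gm44396 with Snx13 as the nearest coding gene (3.01 and 4.12 against at most 1.85), to Slf1, which acts in DNA repair (1.44 and 1.25 against at most 0.812), and to the lincRNA 1700017G19Rik (2.38 and 2.34 against at most 1.54). The Slf1 region is 64.5% soft-masked. The log2 difference near AC105333.1 was 1.77 ± 0.28, and 1.53 ± 0.28 when centred within chromosomes, and passed either way (adjusted p = 0.0060 and 0.015).

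The lower regions were led by 2 sites on chromosome 12. An intergenic region nearest to the pseudogene Gm48268 (chr12:59459719-59461399) had 0.488 and 0.530 in B6, while all 14 other samples were between 1.29 (NOD female) and 3.04 (AJ male). The log2 difference was -1.93 ± 0.20 (adjusted p = 0.00056). A region by the small RNA gene Gm24359 (chr12:34997690-34999199) had 0.298 and 0.289 against 0.655 to 2.00 (log2 difference -1.83 ± 0.23, adjusted p = 0.0017). At both sites the B6 female and the B6 male were close to each other and the groups did not overlap.

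Of the 12 lower named regions, 7 have a coding gene as the nearest start site. At the promoter of Cd59a (chr2:104095405-104096999), whose product protects cells from complement, B6 had 0.690 and 0.422. The other samples ranged from 1.25 (AJ male) to 4.55 (NZO male) with a median of 2.17, a log2 difference of -2.04 ± 0.23 (adjusted p = 0.00085). An intron of Bmpr1b, a type 1 receptor of bone morphogenetic proteins (chr3:141989362-141990828), had 0.952 and 0.892 against 1.89 to 4.11 (log2 difference -1.40 ± 0.19, adjusted p = 0.0028). An intron of Eipr1, which acts in the making of dense-core vesicles (chr12:28848830-28849679), had 0.226 and 0.313 against 0.563 to 0.898. The promoter of Duoxa2, a maturation factor of the dual oxidase DUOX2 (chr2:122298490-122299142), had 0.214 and 0.108 against 0.377 to 0.891.

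The 3 largest negative differences were at Sfi1, Nuf2 and Gm44634. In an intron of the kinetochore gene Nuf2 (chr1:169517336-169518374), B6 had 0.298 and 0.386 and the others from 0.755 (WSB female) to 3.44 (AJ male), a log2 difference of -2.35 ± 0.18 (adjusted p = 0.00010). The 31-base words at its summit occur at least 3 times in the genome. Those of the region near the pseudogene Gm44634 (chr8:3068230-3069503) occur at least 5 times, and B6 had 0.119 and 0.145 there against 0.283 to 1.44. Over Sfi1, which encodes a centrin-binding protein (chr11:3180673-3200065), a merged region of 19393 bases that also reaches Drg1 had 2.85 and 2.63 in B6 (log2 difference -2.38 ± 0.24, adjusted p = 0.00040). The CAST and PWK samples reached 40.1 to 58.6 there, and the remaining 10 samples lay between 5.17 and 13.8. A further merged region of 21981 bases by the pseudogene Gm21978 (chr4:145550733-145572713) had 0.262 and 0.265 against 0.477 to 1.88. In regions as wide as these 2, the highest summit may lie at different places in different samples. The levels at Nuf2 and Gm44634 are uncertain, since their reads may be placed among copies.

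**Figure D3:**
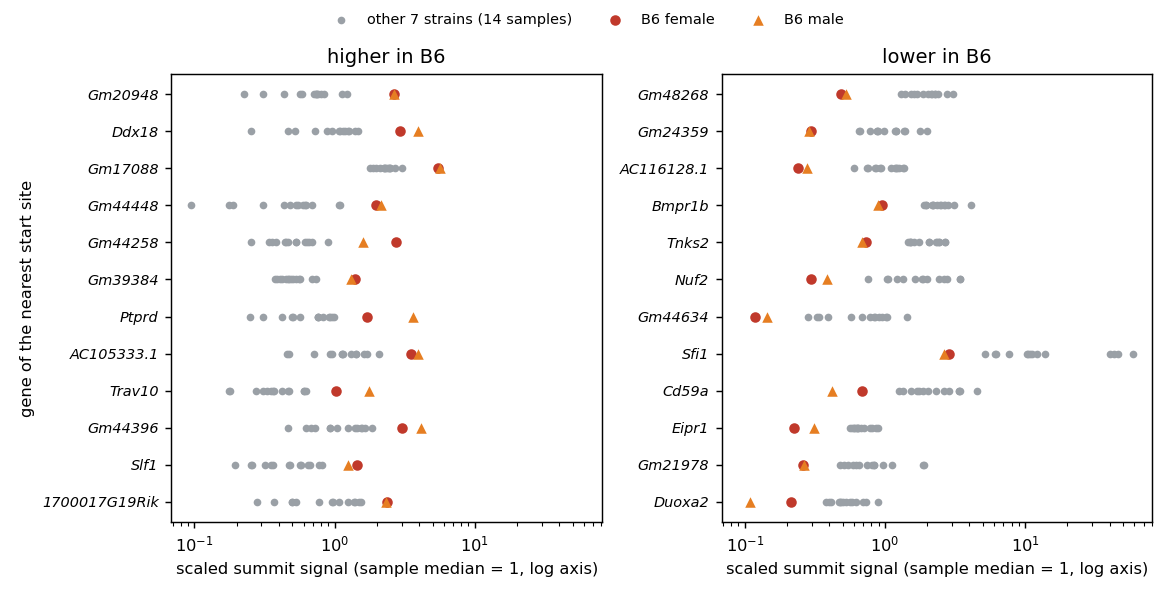
Scaled summit signal (x axis, log scale, with the sample median over shared regions at 1) in the 12 higher and 12 lower named regions (y axis), with 1 point per sample. The B6 female (circle) and the B6 male (triangle) lie to one side of all 14 other samples (grey) in every row, which is how the regions were chosen, and the Sfi1 region shows the CAST and PWK samples at 40.1 to 58.6.

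Of the 12 lower named regions 2 lay on chromosome 19, next to each other at Tnks2, which encodes the poly-ADP-ribosylating enzyme tankyrase 2. The Tnks2 promoter (chr19:36832870-36835438) had 0.738 and 0.687 in B6 against 1.45 to 2.69 in the others. Its log2 difference was -1.46 ± 0.23 (adjusted p = 0.0055), but -0.70 (adjusted p = 0.12) when centred within chromosomes, so the call was lost with the shift of the chromosome removed. A region by the pseudogene AC116128.1, 17631 bases from the start of Tnks2 (chr19:36815822-36816601), had 0.238 and 0.277 against 0.605 to 1.36. Its log2 difference of -1.91 ± 0.21 became -1.15 and passed under either centring (adjusted p = 0.00060 and 0.013). This region and the one near Gm48268 were the 2 lower calls of the 2-group fit (adjusted p = 0.039 for each). That fit treats the 2 samples of a strain as independent, and neither region passed in the fit of strain means.

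Which strain came nearest to B6 was counted over the regions beyond all others. Among the 324 lower regions the next sample was from 129 in 142, from PWK in 54 and from NZO in 40. Among the 231 higher regions it was from 129 in 51, NZO in 46 and AJ in 40, and from CAST in 8. CAST gave the sample farthest from B6 in 99 of the higher regions. The lead of 129 among the lower regions came with chromosome 19, where 129 was low as well. In the 148 lower regions off chromosome 19, counted after its shift was seen, the next sample was from NZO in 35, from 129 in 27 and from CAST in 20.

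Set against single strains, B6 differed most often from CAST and PWK. The number of shared regions past the test was 309 against 129 (0.755%), 918 against NOD (2.24%), 922 against NZO (2.25%), 1067 against AJ (2.61%), 1434 against WSB (3.5%), 3783 against PWK (9.24%) and 7002 against CAST (17.1%). These 7 comparisons share the B6 samples. The low count against 129 rested on 1 sample. Without the B6 female it was 806, above 190 for NZO, 345 for AJ, 398 for NOD and 546 for WSB in the same setting, and without the B6 male it was 26. Against CAST, 4614 regions were higher in B6 and 2388 lower, and against AJ 353 were higher and 714 lower. Centring within chromosomes lowered the AJ count to 576, with 235 higher and 341 lower, the NZO count to 470 and the WSB count to 867. Call numbers were not a plain measure of distance, since the median absolute log2 difference was 0.37 against 129, larger than 0.28 against NOD and 0.29 against WSB.

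The overlap of peak lists gave a similar order at its far end. The Jaccard index, the bases in both lists divided by those in either, was 0.573 between the B6 female and the B6 male. Between B6 and another strain it averaged 0.553 for NOD, 0.516 for 129, 0.510 for AJ, 0.487 for WSB, 0.480 for NZO, 0.431 for CAST and 0.391 for PWK, over 4 pairs each. The single pairs overlapped in range, from 0.456 to 0.552 for 129 and from 0.385 to 0.572 for NZO. With the 77887 strongest peaks of each list, the B6 pair rose to 0.637 and NOD remained the nearest at 0.593, followed by WSB at 0.570.

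Presence and absence of peaks gave a second view. A peak was called in both B6 samples and in no other at 393 regions, against 182 (129) to 6249 (CAST) in the other strains, so that B6 was the fourth lowest. No peak was called in either B6 sample but in all 14 others at 64 regions, the fewest of the 8 strains, for which the numbers ran from 104 (WSB) to 787 (PWK). An absent peak means that the threshold of the authors was not passed, not that the region was closed. The study also aligned the reads to individualized genomes and reported a small average difference between the alignments. The part of the mapping of all reads to the B6 genome in the counts given here was not tested.

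**Figure D4:**
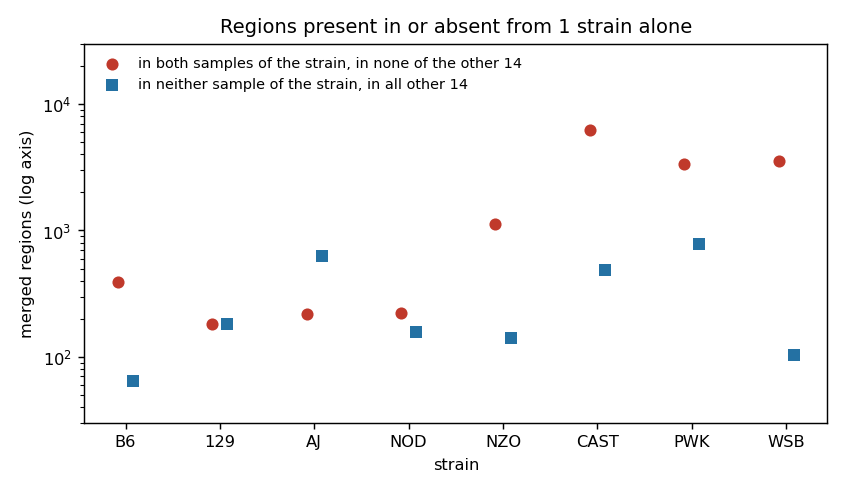
Number of merged regions (y axis, log scale) called in both samples of a strain and in none of the other 14 (red circles), or in neither sample of a strain and in all other 14 (blue squares), by strain (x axis). B6 has 393 of the first kind and, with 64, the fewest of the second kind.

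Sequences of the first 2 regions of either kind are printed as before, to set a repeated sequence beside regions with a 31-base word that occurs only once.
Sema6d, chr2:123754700-123754899: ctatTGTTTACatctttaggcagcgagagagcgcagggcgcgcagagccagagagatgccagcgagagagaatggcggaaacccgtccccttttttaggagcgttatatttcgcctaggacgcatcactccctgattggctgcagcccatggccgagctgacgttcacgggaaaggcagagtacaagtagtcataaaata
Gm48669, chr12:20512463-20512662: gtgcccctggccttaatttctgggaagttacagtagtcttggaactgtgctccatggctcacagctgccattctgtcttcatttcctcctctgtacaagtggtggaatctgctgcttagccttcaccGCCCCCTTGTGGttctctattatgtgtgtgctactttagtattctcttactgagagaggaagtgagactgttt
Rprl3, chr8:3803187-3803386: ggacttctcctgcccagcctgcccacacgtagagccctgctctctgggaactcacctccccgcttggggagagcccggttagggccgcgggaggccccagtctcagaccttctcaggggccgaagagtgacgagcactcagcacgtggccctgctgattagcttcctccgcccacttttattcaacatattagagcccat
Apba1, chr19:23893224-23893423: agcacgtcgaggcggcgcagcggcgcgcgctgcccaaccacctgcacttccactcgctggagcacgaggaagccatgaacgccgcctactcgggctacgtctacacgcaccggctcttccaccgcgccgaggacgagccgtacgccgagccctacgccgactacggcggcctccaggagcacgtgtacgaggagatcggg
The first belongs to a soft-masked repeat whose 31-base words occur at least 97 times in the genome, and it has a forkhead letter match near its start. The second has a CTCF core match on the minus strand. In each of the other 3, at least 1 of the sampled words occurs only once on chromosomes 1 to 19, and the rest may recur.

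B6-only regions were ranked by the lower of the 2 B6 samples, and missing regions by the lowest of the 14 others. The first B6-only region was this repeat, in intergenic sequence 334915 bases from the start of Sema6d, a semaphorin gene (chr2:123754671-123755054). Scaled signal was 1.01 in the B6 female and 0.964 in the B6 male, about the level of a typical shared region, and no peak was listed in the other 14 samples. A region by the pseudogene Gm48669 (chr12:20512106-20512740) had 0.940 and 1.00, and the transcript A230059L01Rik (chr1:146805436-146806705) had 0.917 and 1.65, with words that occur at least 3 times. An exonic region within the adenylate cyclase gene Adcy2, with Gm26929 as the nearest start site (chr13:68730103-68730352), had 0.702 and 1.01. The remaining 4 of the first 8 were soft-masked over their whole length. They comprised 2 intergenic peaks near Kif1a, a kinesin of vesicle transport (0.690 and 0.831, and 0.583 and 0.880), 1 in an intron of the scaffold gene Shank2 (0.512 and 0.542) and 1 in an intron of Ano4 (0.50 and 0.482). All 4 had words repeated at least 5 times in the genome. Most other B6-only peaks were narrow, with a median width of 200 bases.

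The first of the regions missing in B6 lay at Rprl3, a gene annotated as a copy of the ribonuclease P RNA (chr8:3803119-3803354). It had 2.31 (CAST female) to 4.41 (PWK male) in the 14 other samples, well above a typical shared region, and no peak in either B6 sample. Next was an exonic region of Apba1, an adaptor protein of vesicle release (chr19:23892811-23893720), with 0.478 to 1.79 elsewhere. Promoters followed at Ffar4, the receptor GPR120 for long-chain fatty acids (chr19:38096893-38098696, 0.375 to 0.964), at Itln1, the lectin intelectin 1 (chr1:171532659-171535434, 0.348 to 0.781), and at the metalloprotease gene Adamts19 (chr18:58966600-58967264, 0.330 to 1.05). The regions near Gm48429 (0.452 to 2.47), Dr1 (0.290 to 0.886) and Gm10254 (0.284 to 0.719) were not promoters. Apba1 and Ffar4 are 2 of 5 such regions on chromosome 19, where the signal of shared regions was lower in both B6 samples. Presence was read from the peak lists as they are, so centring within chromosomes does not apply to it. Whether these peaks are missing apart from the shift of the chromosome was not tested.

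A single stretch of chromosome 13 held 19 of the 64 regions missing in B6 (29.7%). It runs from 65450915 to 66460520 and holds many pseudogenes and predicted genes, among them Gm10139 and 2410141K09Rik. The B6 female and the B6 male each had a peak in 5 of its 517 merged regions, whereas the other 14 samples had peaks in 42 to 273. Over the 19 regions, scaled signal in the others had a median of 0.400 and reached 1.29. At 15 of the 19, all 3 sampled 31-base words occurred more than once in the genome, and the median soft-masked share was 34.8%. Reads from this stretch may be split among copies, so the position of the signal within it is uncertain.

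The sets differed in where they lie in genes. Promoters, taken as regions within 3 kb of a start site, made up 41.0% of all shared regions but 20.3% of the 231 higher ones, of which 39.4% were intergenic and 35.1% intronic. Of the 324 lower regions 57.1% were promoters. Without chromosome 19, where 51.5% of shared regions are promoters, 40.5% of the remaining 148 lower regions were, which is the share of all shared regions. The higher set kept a low promoter share of 18.6% when values were centred within chromosomes. Median GC content was 44.2% in the higher and 50.0% in the lower regions, against 47.0% in all shared regions, and 47.7% in lower regions off chromosome 19. The median log2 difference was -0.09 over all shared promoters and 0.08 over all other shared regions.

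**Figure D5:**
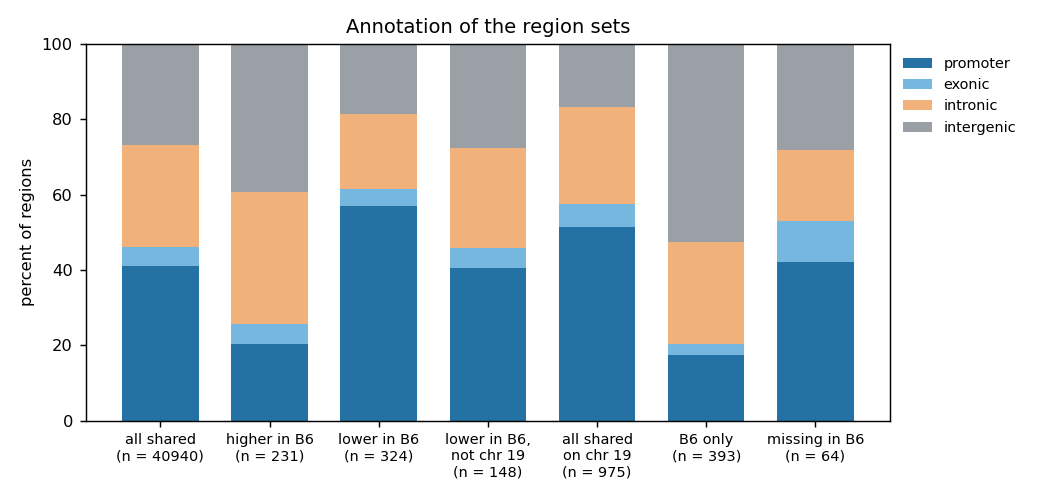
Percent of regions (y axis) in promoters, exons, introns and intergenic sequence for each set (x axis, with n). The higher set has 20.3% promoters and the lower set 57.1%, which falls to 40.5% without chromosome 19, against 41.0% of all shared regions.

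Repeats were more frequent in the presence sets than among shared regions. The share of regions with more than 50% soft-masked sequence was 1.58% over shared regions, 4.76% in the higher and 2.16% in the lower set, 22.4% of the B6-only regions and 17.2% of the missing ones. Summit words that all recurred in the genome were found in 1.44% of shared regions, 4.33% of the higher, 3.70% of the lower, 11.2% of the B6-only and 34.4% of the missing regions. Over all merged regions, of which most are weak, 14.8% were more than 50% soft-masked.

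Letter matches to 10 motifs were searched on both strands in the 200 bases around the highest summit. These were the CTCF core, AP-1 (TGANTCA), the cyclic AMP response element (TGACGTCA), forkhead (TGTTTAC), homeodomain (TAATTA), ETS (CCGGAAG), an RFX site (GTTGCCANG), a site of GATA factors (AGATAAG), the nuclear factor I palindrome and an E-box (CAGATG). Outside promoters, the CTCF core was in 12.4% of the 24171 shared regions but in 2 of 184 higher regions (1.09%), and in 1 of 118 (0.847%) when centred within chromosomes. It was in 26 of 139 lower regions (18.7%), or in 10 of 88 (11.4%) without chromosome 19. AP-1 was in 16.7% of shared regions, 9.24% of the higher and 10.1% of the lower ones. Forkhead was in 8.25% of shared, 12.0% of higher and 4.32% of lower regions, and in 12.7% of the 324 B6-only regions outside promoters. The B6-only regions carried the CTCF core in 2.78%. Motif shares over all merged regions, or over regions called in another strain alone, were not taken. The shares of the B6-only regions therefore have no background of similar peaks. CTCF is a DNA-binding protein of insulators and loop ends, and forkhead proteins such as FOXA2 act in islet enhancers. These shares describe letters in the B6 sequence and do not show that a protein was bound.

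Genes of islet function were described by lists. For insulin secretion, 15 of 18 genes had a shared region near a start site, which represent the potassium channel subunits (Abcc8 and Kcnj11, which share 1 region), calcium channels, granule proteins, prohormone convertases and the exocytosis machinery. None was higher and 1 was lower, where 1.46% of all shared regions were higher and 1.68% lower. The lower one was Syt7, a calcium sensor of granule release on chromosome 19 (chr19:10385009-10395773), with 1.57 and 0.988 in B6 against 1.66 to 2.99. Its log2 difference of -0.87 ± 0.18 (adjusted p = 0.024) became -0.12 (adjusted p = 0.79) when centred within chromosomes. Snap25 had a log2 difference of 0.27, Pcsk1 of 0.06 and Chgb of -0.54, and none of them passed, although both B6 samples of Chgb (0.952 and 0.904) were just below the lowest other sample (0.964). The median over the list was -0.04, against -0.005 over all shared regions and -0.09 over all shared promoters. The region of Abcc8 and Kcnj11 is a wide merge (chr7:46095200-46120819), whose highest summit may lie far from either start site.

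Of the mitochondrial redox list all 14 genes had a shared region, and none passed the test. Nnt, the nicotinamide nucleotide transhydrogenase, is known for a deletion of coding exons in C57BL/6J. Its promoter region (chr13:119407845-119410259), which lies outside the deleted exons and so does not check them, had 1.85 and 2.23 in B6 against 1.40 to 2.93. The median over the list was -0.19, and 3 of its genes (Prdx3, Prdx5 and Pcx) are on chromosome 19. The unfolded protein response list had 16 of 16 genes measured with none past the test and a median of -0.07.

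The interferon response list had a median of -0.35 over 14 measured genes of 16, and none was higher and 3 were lower, beside 1.46% and 1.68% of all shared regions. Gbp3, an interferon-induced guanylate-binding protein (chr3:142559657-142561115), had 1.18 and 0.988 in B6 against 1.23 to 7.19 with a median of 2.75. Its log2 difference was -1.36 ± 0.22 (adjusted p = 0.0064), and it was lower under the centring within chromosomes too (-1.42, adjusted p = 0.0099). The neighbouring Gbp2 had a log2 difference of -0.75 (adjusted p = 0.036), within the range of the other samples, and did not pass when centred within chromosomes (adjusted p = 0.052). Ifit1 on chromosome 19 had -0.83 (adjusted p = 0.032) and -0.08 when centred (adjusted p = 0.88). Irf9 (-0.34) and Isg15 (-0.03) did not pass. Among the markers of other cell types, Acta2 of stellate cells, also on chromosome 19, was lower with a log2 difference of -1.22 (adjusted p = 0.016), which was -0.47 (adjusted p = 0.38) when centred within chromosomes. Its B6 female (0.321) lay within the range of the others (0.275 to 1.19) and its B6 male (0.229) below it. None of the remaining markers passed the test.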

How the data were processed

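ATAC-seq peak lists of 16 islet samples were used. Per the study's methods, the authors trimmed reads with cutadapt 2.0, aligned them to mm10 with Bowtie2 2.3.4.1, removed unmapped, mitochondrial and duplicated reads (SAMtools and Picard 2.9.2) and used MOSAiCS (false discovery rate 0.05) to call peaks sample by sample. A Tn5 shift is not given in the sources used here. The deposited signal is a whole-number summit height that is not scaled to depth, so no counting interval is given. The deposited score, a mean signal by its values, served as an alternative. The authors' −log10 p-value ranked peaks in 1 alternative. In the 8 strain lists, the deposited −log10 IDR was used to keep peaks at an IDR of 0.05 or less.

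Peaks on chromosomes 1 to 19 were merged where they touched or overlapped, and their annotation came from GENCODE M21, whose assembly GRCm38 is mm10. Signal was tested with limma 3.58.1 in R 4.3.3 on 40940 shared regions, with a pseudocount of 1, a term for each strain and a term for sex. The script was tested on simulated data. Strain names, sexes and groups came from the labels, and the classical strains (129, AJ, B6, NOD and NZO) from the text of the study. The study tested read counts, which were not used here. A gene list was described by the shared region with the highest mean signal within 3 kb of a start site. Named regions were those beyond all other samples with the widest gap, 12 in each direction and at most 1 per gene, and the first 8 of each presence set, ranked by the lowest scaled signal among the samples with a peak. The gene lists, members and tests were chosen with earlier results of these data known. Words of 31 bases at the summit and 50 bases to either side were counted on chromosomes 1 to 19.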

Additional observations from a re-analysis of the deposited data

Results flagged for a closer look

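In 11 measures compared over the 8 strains, 2 values stood far from the rest, both of them of CAST and none of B6. CAST had 5636 regions lower than the mean of the other strains, a gap to the next strain of 0.646 of the whole range, and 3246 of these lay below all other samples, a gap of 0.727 of the range. Chance flags about 5% of groups of this size. The CAST samples enter the mean that B6 is compared with. No explanation was tested.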

How the results depend on the processing

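No named region changed the sign of its difference in any setting. These regions were chosen with both B6 samples beyond all others, so this outcome was largely fixed in advance and lends no support. The balance of the counts did change. Lower regions were the more numerous as reported, but higher ones were in several settings. Among these were no centring, the score column, centring within chromosomes, leaving out chromosomes 11, 18 and 19, and leaving out NZO. Quantile normalization, centring in bins of GC content, a pseudocount of 16, regions of at most 2000 bases and no sex term kept the counts of B6 against the other 7 strains within 1.5 times. The following counts are in the order higher, lower, higher beyond all others and lower beyond all others, where the reported values were 596, 686, 231 and 324. They were 42, 36, 34 and 20 without centring, 284, 270, 145 and 136 with the score column, 324, 432, 130 and 189 with only peaks above the median −log10 p of each list, and 10, 45, 9 and 42 with classical strains only. With the strain means as data they were 0, 0, 0 and 0, and with 2 groups 0, 2, 0 and 2. Chosen after seeing the data, centring within chromosomes gave 348, 272, 145 and 120, and leaving out chromosomes 11, 18 and 19 gave 334, 258, 141 and 111. Regions called in at least 12 samples gave 1146 higher and 520 lower beyond all others. In that setting a sample without a peak was given a signal of 0, so a region can pass because a peak was not called. More regions were tested as well, so these counts cannot be set beside the reported ones. Leaving out 1 sample or strain gave 19 to 1991, 70 to 1512, 17 to 503 and 60 to 529. The lowest were without the B6 male, and without the B6 female they were 96, 146, 89 and 130. The highest were without the NZO female or without NZO. A lone B6 sample is assumed to vary like the other strains.

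Against single strains, the counts without centring were 16 for 129, 167 for AJ, 99 for NOD, 26 for NZO, 12212 for PWK and 275 for WSB. Without a sex term 129 had 561. Centred within chromosomes, AJ had 576, NZO 470 and WSB 867. Without 1 B6 sample they were 26 to 806 for 129, 318 to 345 for AJ, 2823 to 5464 for CAST, 233 to 398 for NOD, 77 to 190 for NZO, 1692 to 1989 for PWK and 535 to 546 for WSB. B6-only regions numbered 192 with stricter peaks, 729 with the strain lists, 932 with 1 exception allowed, 1518 among classical strains and 396 to 7821 with 1 sample or strain left out, the highest without the B6 male. Missing regions numbered 25, 187, 177, 239 and 64 to 288 in the same order, the highest without the B6 female, and 5 where peaks had to cover 0.5 of the region. With equal numbers of peaks the Jaccard index was 0.5604 for 129, 0.4741 for CAST, 0.5926 for NOD, 0.4565 for PWK and 0.5695 for WSB. The causes were not tested beyond what each setting removes. Over the named regions and their settings, 365 of the higher values stayed past the test and 71 did not, against 386 and 44 of the lower ones. Most of these settings leave out 1 sample or strain, so the totals are not a measure of robustness. With the list genes Gbp3 and Syt7 added, 26 regions were followed. Of these, 0 stayed past the test with strain means, 2 with 2 groups, 7 with classical strains only and 13 without centring. No paired analysis was possible because each strain has 1 sample of each sex, and sex is already a term of the model. The depth of single samples was not analysed here, which limits every statement on absent peaks.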

Other observations

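A short stretch of chromosome 19 stood out from the shift of that chromosome and was picked after its values were seen. Of the 6 regions there that lay above all other samples when centred within chromosomes, 4 lay between 37236847 and 37304454, near the small nuclear RNA gene Gm25268 and Ide, which encodes the insulin-degrading enzyme. Without that centring, their log2 differences were 0.70, 0.89, 0.49 and 0.30 and none passed the test, while the chromosome as a whole had a median of -0.74. Centred within chromosomes they were 1.45, 1.64, 1.25 and 1.06 (limma, adjusted p = 0.0020, 0.0080, 0.024 and 0.024). At the second, scaled signal was 1.45 in the B6 female and 2.14 in the B6 male, against 0.552 to 1.52 in the others, so the groups overlapped before centring. The other 2 regions were near Glis3 and the pseudogene CR555305.2.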
